A study of Rattus norvegicus with 12 samples.

Results

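The interleukin 1 family was followed in bronchial tissue of male Wistar Han rats that had inhaled 2,3-pentanedione (PD), a butter-flavouring compound that injures the airway lining. The family and its receptors were represented by 9 genes taken by symbol from the annotation of the array (Il1a, Il1b, Il1rn, Il1r1, Il1r2, Il1rl1, Il1rap, Il18 and Il33), out of 14217 genes with a probe set of their own. Each gene was read from the probe set with the highest mean log2 signal over the 12 arrays. The groups were fibrotic bronchi of rats exposed to 200 ppm PD for 2 weeks (3 arrays, replicates 3, 7 and 9), non-fibrotic bronchi of such rats (3 arrays, replicates 4, 8 and 10) and bronchi of air-exposed controls (6 arrays, replicates 1 to 6). The tissue was cut out by laser. A fibrotic specimen held the polyp or plaque in the lumen with the wall beneath it, and the other specimens held a bronchus with its lining and wall. The study's methods describe non-fibrotic bronchi from some of the same rats as the fibrotic ones, and labels do not tie a specimen to a rat.

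Cytokines of this family act early when an epithelium is damaged. IL-1 alpha and IL-1 beta bind IL-1 receptor type 1, which then recruits the accessory protein Il1rap and signals through Myd88 to NF-kappaB. The receptor antagonist Il1rn occupies the same receptor without signalling, and the type 2 receptor Il1r2 is a decoy that binds IL-1 and does not signal. IL-33 signals through ST2, the product of Il1rl1, with the same accessory protein. IL-18 has its own receptor and is known for driving interferon gamma production. IL-1 beta and IL-18 are cleaved by caspase-1 before release, while IL-1 alpha and IL-33 can act when a dying cell sets them free. These roles were worked out largely in human and mouse cells, and the arrays measure transcripts only.

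Il1a and Il1b lie next to each other on chromosome 3, and Il1rl1 lies between the receptor genes Il1rl2 and Il18r1 on chromosome 9. Promoters of 3 ligands are shown because Il1a and Il1b are neighbours with different patterns in these bronchi and Il33 rose on both of its probe sets. They are RefSeq sequences of build GRCr8, from 250 bases before the start of transcription to 50 after it. Capitals mark the AP-1 motif TGANTCA, the TATA box TATAAA and the NF-kappaB consensus on either strand, where N is any base.
Il1a, chr3:136989968-136990267, minus strand: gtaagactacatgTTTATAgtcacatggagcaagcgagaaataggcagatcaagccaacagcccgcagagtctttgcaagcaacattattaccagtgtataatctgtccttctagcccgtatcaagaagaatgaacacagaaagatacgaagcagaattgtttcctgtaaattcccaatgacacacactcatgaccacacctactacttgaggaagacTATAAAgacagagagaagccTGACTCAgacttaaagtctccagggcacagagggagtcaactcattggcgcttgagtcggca
Il1b, chr3:137036532-137036831, minus strand: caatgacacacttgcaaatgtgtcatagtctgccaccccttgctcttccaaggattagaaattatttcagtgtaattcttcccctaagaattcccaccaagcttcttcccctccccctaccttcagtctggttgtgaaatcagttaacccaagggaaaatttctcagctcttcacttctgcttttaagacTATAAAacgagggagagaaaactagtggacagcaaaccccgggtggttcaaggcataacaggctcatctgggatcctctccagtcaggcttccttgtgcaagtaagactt
Il33, first start, chr1:237115323-237115622, plus strand: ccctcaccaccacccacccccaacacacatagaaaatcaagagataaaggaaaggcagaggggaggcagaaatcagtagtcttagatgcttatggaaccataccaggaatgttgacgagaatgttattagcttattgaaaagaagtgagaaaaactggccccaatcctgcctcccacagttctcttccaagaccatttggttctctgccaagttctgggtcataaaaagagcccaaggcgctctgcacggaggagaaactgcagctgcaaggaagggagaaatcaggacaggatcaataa
Il33, second start, chr1:237134696-237134995, plus strand: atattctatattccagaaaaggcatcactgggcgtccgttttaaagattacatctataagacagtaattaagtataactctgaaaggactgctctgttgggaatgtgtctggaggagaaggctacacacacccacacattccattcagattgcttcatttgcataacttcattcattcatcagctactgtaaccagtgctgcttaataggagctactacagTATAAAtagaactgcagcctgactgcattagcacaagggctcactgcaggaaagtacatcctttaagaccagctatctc
The Il1a window held an AP-1 match at position -12 and a TATA box at -32, with a second TATA match on the other strand at -237. The Il1b window held a TATA box at -60. The second Il33 start had a TATA box at -29, and the first start matched none of the 3 motifs. Among the other members with a promoter sequence, Il18 had an AP-1 match at position 6, Il1r1 and Il1rap each held the NF-kappaB consensus, and Il1rn and Il1rl1 each held a TATA match on the other strand. AP-1 matches were found in 7.33% of 33469 rat promoters of this length, the NF-kappaB consensus in 7.51% and the TATA box in 14.2%. A match is a string of letters and says nothing of whether a factor binds there.

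Signals are MAS5 values on one trimmed mean per array and were compared on the log2 scale. Levels of different probe sets are not set against each other as amounts of transcript. A log2 signal of 6.52 was the highest value of bacterial transcripts that had not been added to the sample, and a value under it is treated as background. Between 60% and 70.6% of probe sets lay above it on each array. Controls 1 and 2 differed from the other arrays in carrying almost no signal for the added poly-A transcripts (2.31 and 2.33, against 8.02 to 11.06 elsewhere), and their labels have the form of the exposed arrays, while those of controls 3 to 6 have another. The log2 excess of 3′ over 5′ GAPDH signal was 1.59 to 2.11 on fibrotic arrays, 1.95 to 2.35 on non-fibrotic arrays and 0.70 to 2.03 on control arrays, with controls 3 to 6 lowest (0.70 to 0.90). Labelled tissue and markers matched in part: all 6 ciliated and all 7 club cell markers fell in fibrotic bronchi, where the summed club cell signal was 5630 to 14100, against 52100 to 106000 in controls. In such specimens, for every gene below, fewer cells of a type and less RNA per cell cannot be told apart.

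In fibrotic bronchi relative to controls, 4 of the 9 genes rose at an adjusted p under 0.01 (limma, all probe sets tested together), namely Il1a, Il33, Il1rl1 and Il18, and none fell. Over all genes, 4.13% rose and 8.38% fell by this test, 12.5% in all. Of the 9, 5 had every fibrotic array above every control array, as had 15.1% of all genes. The median log2 difference of the 9 was 1.74, against 0.10 over all genes. In non-fibrotic bronchi, 0 of the 9 passed the limma test against controls, where 0.619% of all genes did. An unadjusted p under 0.05 was reached by 4 of the 9 in that comparison (27.7% of all genes), and the 2-fold rule of the study's methods and an ordinary linear model called 0 as well. The median log2 difference there was -0.45, against 0 over all genes. Set directly against non-fibrotic bronchi, fibrotic bronchi had higher Il1b, Il1rn and Il18 at an adjusted p under 0.01, a rise that 1.47% of all genes showed, with a median difference of 3.06 over the 9. On 6 of the 9 every fibrotic array exceeded every non-fibrotic one, as on 14.1% of all genes. Both comparisons with air use the same 6 control arrays, and p-values between the exposed groups do not allow for rats that gave both kinds of tissue.

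**Figure D1:**
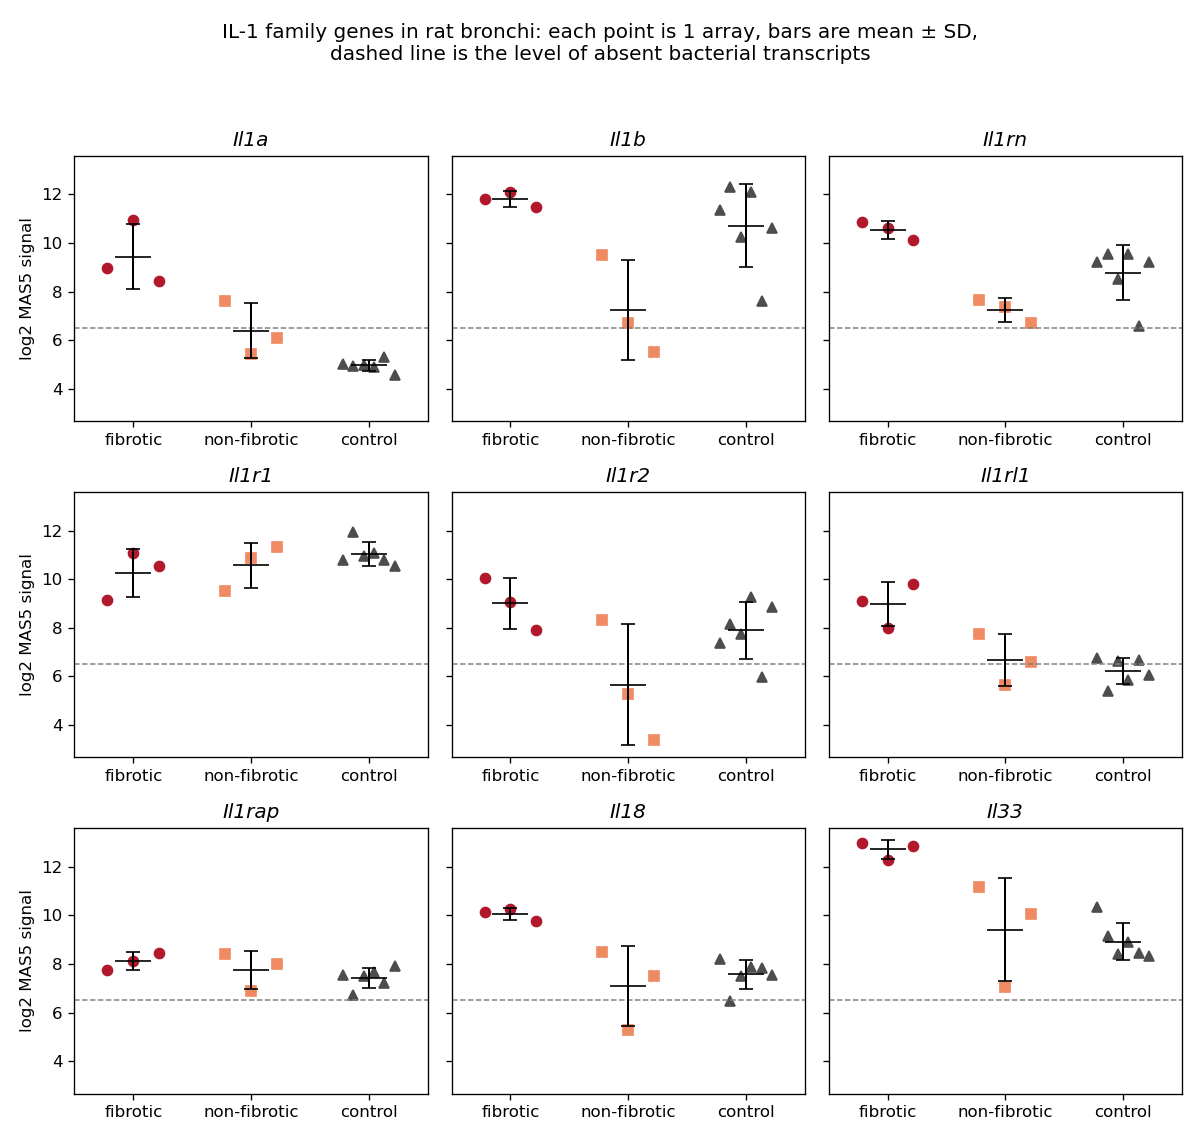
Log2 MAS5 signal of the 9 genes (vertical axis) in fibrotic, non-fibrotic and control bronchi (horizontal axis), 1 point per array, with the mean and SD of each group; the dashed line at 6.52 is the level of absent bacterial transcripts. Il1a, Il33, Il1rl1, Il18 and Il1rn have all fibrotic points above all control points. Il1b, Il1r2, Il18 and Il33 have their lowest points in non-fibrotic bronchi.

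IL-1 alpha is a ligand made as an active precursor by epithelial and stromal cells. The log2 signal of Il1a was 8.97, 10.95 and 8.43 in fibrotic bronchi, then 7.63, 5.43 and 6.12 in non-fibrotic bronchi, and in controls it ran from 4.58 over a median of 4.98 to 5.33. On the linear scale that is 346 to 1970 in fibrotic bronchi and 43.2 to 198 in non-fibrotic bronchi, against 23.9 to 40.3 in controls. All 6 control arrays and 2 of the 3 non-fibrotic arrays lay under the background level, and no array of the fibrotic group overlapped either of the other groups. Since controls have only a bound, the rise of Il1a in fibrotic bronchi is given as at least 7.63-fold (adjusted p = 8.17e-05 by limma), or at least 4.54-fold without fibrotic specimen 7. The fitted difference was 4.48 ± 0.60 on the log2 scale (SE), with a 95% interval of 3.20 to 5.76, and 3.73 without specimen 7.

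Non-fibrotic bronchi also lay above every control array for Il1a, a position that 8.4% of all genes held, but the difference of 1.42 did not pass (adjusted p = 0.148) and shrank to 0.37 when values under background were set to it. Fibrotic bronchi exceeded non-fibrotic ones by 3.06 (95% interval 1.58 to 4.53, adjusted p = 0.0111). A second Il1a probe set was also highest in fibrotic bronchi, by at least 2.5-fold against controls (adjusted p = 0.00158). Its control and non-fibrotic arrays all lay under background, so it gives no order between those groups. Between fibrotic and non-fibrotic bronchi it did not pass (adjusted p = 0.244).

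IL-1 beta is the form produced in quantity by activated myeloid cells. The log2 signal of Il1b was 11.81, 12.12 and 11.48 in fibrotic bronchi, 9.53, 6.71 and 5.54 in non-fibrotic bronchi, and 7.64 to 12.30 with a median of 10.99 in controls. Fibrotic specimens were uniformly high and the non-fibrotic ones lower than each of them, while control 5 lay within the non-fibrotic range and control 2 above all fibrotic values. The log2 difference of fibrotic bronchi from controls was 1.09, with an interval of -0.76 to 2.95 that holds both no change and a rise of several fold (adjusted p = 0.42). Non-fibrotic bronchi averaged 7.26 ± 2.05 (SD, n = 3), against 10.71 ± 1.71 in controls (SD, n = 6), a difference of -3.45 whose adjusted p of 0.0342 by limma missed the threshold. Without control 5 this difference passed it, as it did without non-fibrotic specimen 4. Fibrotic bronchi stood 23.4-fold above non-fibrotic ones (log2 difference 4.55 ± 1.01 SE, adjusted p = 0.00989), a call that 15 of 26 other settings lost. That difference was 5.68 without non-fibrotic specimen 4 and 3.69 without specimen 10.

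Markers of neutrophils, which are a source of IL-1 beta, were low on the arrays where Il1b was lowest. None of the 7 measured neutrophil markers passed in any comparison, and Camp was under background on all arrays of every group. Their summed signal was 5640 to 6280 in fibrotic bronchi, 440 to 2140 in non-fibrotic bronchi and 686 to 8770 in controls. The control with the lowest sum, 686, was control 5, which also had the lowest Il1b of its group, and non-fibrotic specimens 8 and 10, with the lowest Il1b of all, had sums of 440 and 902. Among the other arrays the order was not shared: control 2 had the highest Il1b at a sum of 4350, below control 6 at 5530, and fibrotic specimen 7 had the highest Il1b of its group at the lowest sum, 5640. S100a9, a calcium-binding protein and itself one of the 7 markers, had the pattern over the 12 arrays most like that of Il1b. Its r was 0.944, and 0.872 after taking out the group means. The integrin gene Itgax, which is not among the 7, came next (0.932, and 0.933). The pattern was not particular to neutrophil markers. T cell marker sums were also lowest on these arrays: 680 in control 5, 1790 in non-fibrotic specimen 8 and 1720 in specimen 10. Macrophage marker sums were 15400, 22300 and 27500 on the same arrays, against 15400 to 26200 over all controls. The part of neutrophils or other cells in the Il1b result was not tested.

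**Figure D2:**
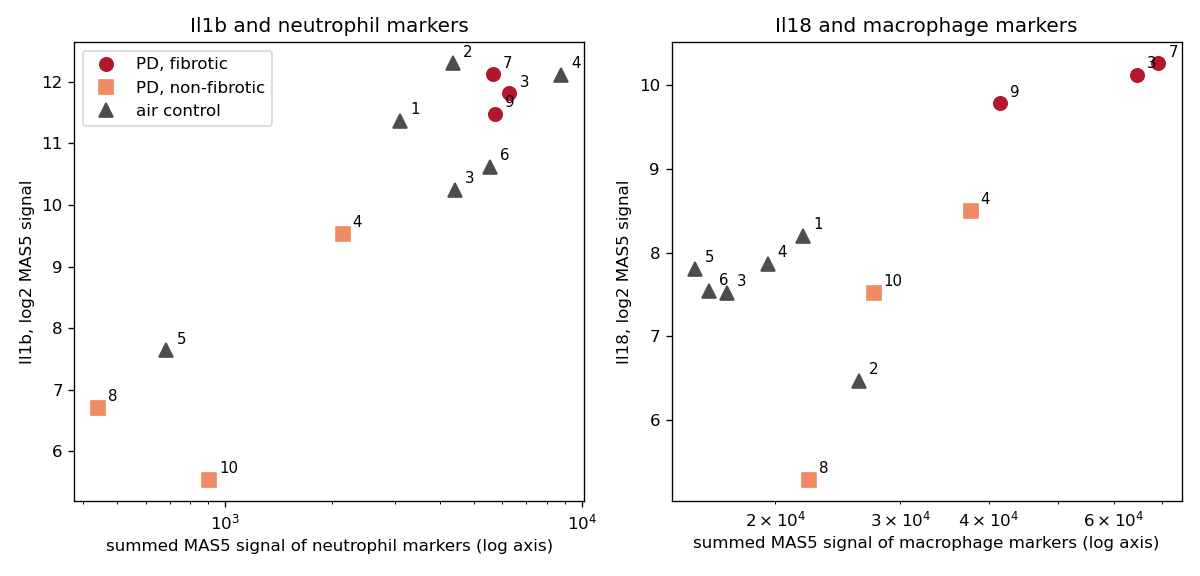
Log2 signal of Il1b against the summed MAS5 signal of 7 neutrophil markers (left) and of Il18 against that of 14 macrophage markers (right), both sums on log axes, with 1 numbered point per array. Control 5 lies with non-fibrotic specimens 8 and 10 at low neutrophil signal and low Il1b, and the 3 fibrotic specimens have the highest macrophage sums and the highest Il18. Fibroblast marker sums, not drawn, were also highest in the 3 fibrotic specimens (69000 to 99700, against at most 55000 on the other arrays).

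Il1rn, the antagonist, followed Il1b more than it followed Il1a. Its log2 signal was 10.85, 10.61 and 10.12 in fibrotic bronchi, 7.68, 7.36 and 6.70 in non-fibrotic bronchi, and 6.61 to 9.57 with a median of 9.23 in controls. All fibrotic values stood above all others, and control 5 was again the lowest control. Fibrotic bronchi were higher than non-fibrotic ones by 9.72-fold (log2 difference 3.28 ± 0.61 SE, adjusted p = 0.00321). Against controls, the difference of 1.74 in fibrotic bronchi (adjusted p = 0.0322) and that of -1.54 in non-fibrotic bronchi (adjusted p = 0.0851) both missed the threshold by limma. Over the 12 arrays Il1rn correlated with Il1b at r = 0.91, or 0.88 within groups, and with Il1a at 0.48, or -0.01 within groups; the arrays share groups and tissue makeup, and these values are descriptions.

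Receptors of IL-1 gave no call. Il1r1, the signalling receptor, spanned 9.14 to 11.06 in fibrotic bronchi, 9.53 to 11.31 in non-fibrotic bronchi and 10.54 to 11.96 in controls, and the groups overlapped. The log2 difference from controls was -0.76 in fibrotic bronchi (interval -1.68 to 0.15) and -0.45 in non-fibrotic bronchi (interval -1.36 to 0.46), and both intervals reach past a 2-fold fall. The gene is read by 3 probe sets. In fibrotic bronchi all 3 lay below controls (differences of -0.94 and -0.71 for the other 2), and in non-fibrotic bronchi one of them lay above (0.80, adjusted p = 0.237).

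Il1rap, the accessory chain shared by the IL-1 and IL-33 receptors, spanned 7.75 to 8.46 in fibrotic bronchi, 6.90 to 8.42 in non-fibrotic bronchi and 6.72 to 7.92 in controls. Differences from controls of 0.69 in fibrotic bronchi (adjusted p = 0.261) and 0.34 in non-fibrotic bronchi (adjusted p = 0.619) did not pass. Its second probe set had all arrays of both exposed groups above all controls, by 1.31 in fibrotic bronchi (adjusted p = 0.0373) and 1.21 in non-fibrotic bronchi (adjusted p = 0.0833), with 4 of 6 control arrays under background.

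The decoy receptor Il1r2 resembled Il1b. It read 10.03, 9.07 and 7.92 in fibrotic bronchi, 8.32, 5.27 and 3.38 in non-fibrotic bronchi, and 5.97 to 9.28 with a median of 7.95 in controls. Of the non-fibrotic values 2, and among controls control 5, lay under background, and fibrotic specimen 9 lay below non-fibrotic specimen 4. No difference passed: 1.11 for fibrotic bronchi against controls (adjusted p = 0.415), -2.24 for non-fibrotic bronchi against controls (adjusted p = 0.124) and 3.35 for fibrotic against non-fibrotic bronchi (adjusted p = 0.0491).

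IL-33 is a nuclear cytokine of epithelial, endothelial and stromal cells that is released on injury. The log2 signal of Il33 was 12.98, 12.28 and 12.85 in fibrotic bronchi, 11.14, 7.04 and 10.03 in non-fibrotic bronchi, and 8.32 to 10.34 with a median of 8.66 in controls. Every fibrotic specimen exceeded every other array, while the non-fibrotic ones ran from the lowest value of all 12 arrays, in specimen 8, to one above all controls, in specimen 4. Fibrotic bronchi were 13.8-fold higher than controls (log2 difference 3.79 ± 0.65 SE, interval 2.41 to 5.16, adjusted p = 0.000715). A second probe set rose too, by 2.51 on the log2 scale (adjusted p = 0.000627).

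Non-fibrotic bronchi differed from controls by 0.48 for Il33, with an interval of -0.89 to 1.86 (adjusted p = 0.664), and the second probe set by -0.06. The difference of 3.30 between fibrotic and non-fibrotic bronchi stood at an adjusted p of 0.011, just outside the threshold, and the second probe set passed it (2.57, adjusted p = 0.00361). Without non-fibrotic specimen 8, non-fibrotic bronchi stood 1.67 above controls, and without specimen 4 they stood 0.38 below.

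The IL-33 receptor gene Il1rl1 read 9.11, 7.99 and 9.79 in fibrotic bronchi, 7.76, 5.63 and 6.59 in non-fibrotic bronchi, and 5.40 to 6.76 with a median of 6.33 in controls. Fibrotic arrays lay above all others, and 3 of the 6 controls were under background. The rise in fibrotic bronchi against controls was 6.66-fold (log2 difference 2.74 ± 0.54 SE, adjusted p = 0.00233), or 2.36 on the log2 scale with values under background set to it. Non-fibrotic bronchi differed from controls by 0.43 (interval -0.73 to 1.58, adjusted p = 0.645). Fibrotic and non-fibrotic bronchi differed by 2.31 (adjusted p = 0.0298).

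This gene encodes a membrane form of ST2 and a secreted one, and the files do not say which form a probe set reads. The second Il1rl1 probe set did not show the rise: it gave 7.30, 7.02 and 7.56 in fibrotic bronchi, 6.22, 4.79 and 7.00 in non-fibrotic bronchi and 6.55 to 7.34 in controls. Fibrotic and control arrays overlapped there, with a difference of 0.27 (adjusted p = 0.744). The call for Il1rl1 holds for 1 of its 2 probe sets, and it was also lost without fibrotic specimen 3 (adjusted p = 0.016) or 9 (adjusted p = 0.0214). Mast cells are known to carry ST2. Of 9 measured mast cell markers none rose in fibrotic bronchi against controls and 1, the histamine-forming enzyme Hdc, fell (-2.78), with a list median of 0.94. The chymase gene Cma1 was above all controls without passing (at least 5.34-fold, adjusted p = 0.0102), and the summed signal was 3440 to 6200 in fibrotic bronchi, 1140 to 2120 in non-fibrotic bronchi and 1450 to 8770 in controls. Fcer1a was under background on all arrays of both exposed groups, Kit and Tpsab1 on all non-fibrotic arrays, and Cma1 and Tpsab1 on all controls. The part of these cells in the Il1rl1 result was not tested.

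IL-18, a ligand held as a precursor in epithelial cells and macrophages, was higher in fibrotic bronchi than in both other groups. Il18 read 10.12, 10.26 and 9.78 in fibrotic bronchi, 8.50, 5.29 and 7.52 in non-fibrotic bronchi, and 6.47 to 8.20 with a median of 7.68 in controls. Fibrotic values did not overlap with any other, and the non-fibrotic values lay on both sides of the controls. The rise was 5.58-fold against controls (log2 difference 2.48 ± 0.55 SE, adjusted p = 0.00544) and 7.7-fold against non-fibrotic bronchi (2.95 ± 0.64, adjusted p = 0.00867). Non-fibrotic bronchi and controls differed by -0.46 (interval -1.64 to 0.71). Against non-fibrotic bronchi the call was lost in 14 of 26 other settings, and the log2 difference was 2.04 without non-fibrotic specimen 8 and 3.64 without specimen 4. The call against controls was lost when any 1 fibrotic array was left out (adjusted p = 0.0278 without specimen 3, 0.0312 without 7 and 0.0164 without 9).

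**Figure D3:**
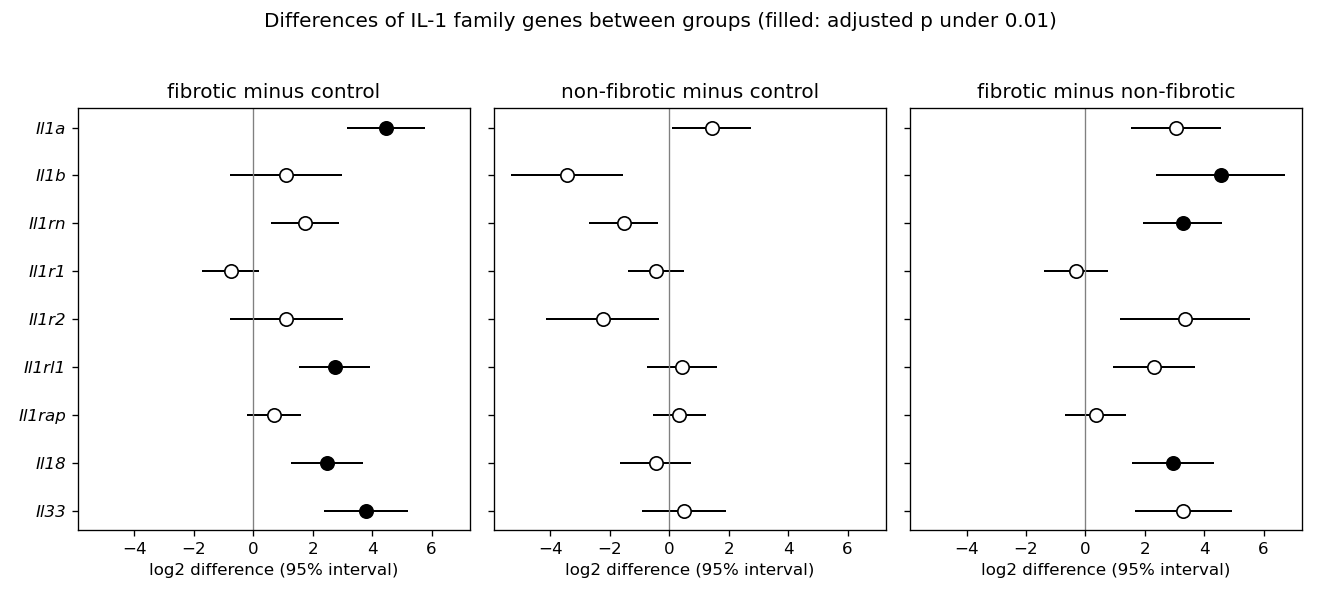
Log2 difference of each of the 9 genes with its 95% interval (horizontal axis) for fibrotic minus control, non-fibrotic minus control and fibrotic minus non-fibrotic bronchi; filled points have an adjusted p under 0.01. Filled points are Il1a, Il1rl1, Il18 and Il33 on the left, none in the middle, and Il1b, Il1rn and Il18 on the right.

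With controls 1 and 2 alone, which share the label form of the exposed arrays, no gene was called in fibrotic bronchi. The log2 differences were then 4.45 for Il1a (adjusted p = 0.0133), 2.96 for Il33 (0.0787), 2.89 for Il1rl1 (0.0706) and 2.72 for Il18 (0.0952). With controls 3 to 6 alone they were 4.49, 4.20, 2.66 and 2.36, and the same 4 genes were called. Il1b moved most between these choices, at -0.02 with controls 1 and 2 and 1.65 with controls 3 to 6.

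Proteins that process the ligands and carry the signal onward were read as counts over lists, to be set beside the 4.13% of all genes that rose and the 8.38% that fell in fibrotic bronchi. Of 11 measured genes of the inflammasome and ligand processing, 1 rose in fibrotic bronchi against controls, a count near the share of all genes: Capn2, a calpain of the family that cleaves IL-1 alpha, by 1.11 on the log2 scale (adjusted p = 0.00144). The median difference of the list was 1.11, against 0.10 over all genes. Casp1, which cleaves IL-1 beta and IL-18, averaged 9.23 in fibrotic bronchi and 7.81 in controls and did not pass (1.41, adjusted p = 0.0306). Pycard, the adaptor that joins inflammasome sensors to caspase-1, passed between fibrotic and non-fibrotic bronchi (2.38, adjusted p = 0.00819) but not against controls (1.67, adjusted p = 0.0154). Nlrp3 was not analysed here. In non-fibrotic bronchi 0 of the 11 were called, with a median of -0.33.

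Of 26 measured genes from the receptors to NF-kappaB, 1 fell in fibrotic bronchi against controls and none rose, fewer than the shares of all genes. Irak1bp1, which binds the kinase IRAK1, averaged 7.41 ± 0.63 in fibrotic bronchi (SD, n = 3), against 10.19 ± 0.24 in controls (SD, n = 6), a fall of 6.88-fold (adjusted p = 6e-06). It was also lower in fibrotic than in non-fibrotic bronchi (-2.08, adjusted p = 0.000989), where 3.83% of all genes were. Myd88, the adaptor of all these receptors, differed by 0.33 from controls (adjusted p = 0.686). Tnfaip3, an inhibitor of NF-kappaB signalling that NF-kappaB itself induces, was higher in fibrotic than in non-fibrotic bronchi by 2.74 on the log2 scale (adjusted p = 0.00495). Of the other receptors and binding proteins of the family, 5 genes were measured and 0 called in any comparison. Among them the inhibitory receptor Sigirr was lower on all fibrotic arrays than on all controls (-1.13, adjusted p = 0.0619), and Il18bp, which neutralises IL-18, differed by -0.31 (adjusted p = 0.53).

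Genes known to be induced by IL-1 form the longest of these lists. Like the others, it was chosen with earlier results of these data known, so its count is no test of a response to IL-1. Of 30 measured, 7 rose, against 4.13% of all genes, and 2 fell, near the 8.38% of all genes, in fibrotic bronchi against controls, with a median of 1.09, and in non-fibrotic bronchi 0 rose and 1 fell. Has2, which makes hyaluronan, rose by 4.81 on the log2 scale (adjusted p = 3.86e-05), and Tnfaip6, which binds hyaluronan, was at least 10.6-fold higher. Timp1, a metalloproteinase inhibitor, rose by 4.22, Plaur, the urokinase receptor, was at least 4.79-fold higher, and Vcam1, an adhesion molecule for leukocytes, rose by 1.29. Mmp13 and Il11 also passed, but the fibrotic mean of Mmp13, 6.04, lay itself under background.

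The genes of this list that fell were the chemokines Cxcl3 and Ccl20, while the other 5 chemokines in it were not called in fibrotic bronchi against controls. Cxcl3, which attracts neutrophils, averaged 9.51 ± 3.53 in fibrotic bronchi (SD, n = 3), against 13.59 ± 0.17 in controls (SD, n = 6), a difference of -4.08 (adjusted p = 0.00506). Ccl20, which attracts dendritic cells and lymphocytes, fell by 3.20 in fibrotic bronchi (adjusted p = 0.00728) and by 4.30 in non-fibrotic bronchi (adjusted p = 0.00786), where 0.436% of all genes fell. Il6 was at least 4.12-fold higher in fibrotic than in non-fibrotic bronchi (adjusted p = 0.00989).

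Of 16 measured genes of the response to IL-33, 1 rose and 1 fell in fibrotic bronchi against controls, together the same share as the 12.5% of all genes. Areg, a growth factor that ST2-bearing lymphocytes make in repair, rose by at least 5.43-fold (adjusted p = 0.000121), and Chia, an acidic chitinase of the airway, fell by 3.81 (adjusted p = 0.00663). The type 2 cytokine gene Il13, named after its values were seen, had means of 2.25 in fibrotic bronchi, 2.66 in non-fibrotic bronchi and 2.86 in controls, all under background. Of 11 measured genes around IL-18 and interferon gamma 2 rose, against 4.13% of all genes: Gbp2, a guanylate-binding protein induced by interferon gamma, rose by 2.53 (adjusted p = 0.000456) and the receptor chain Ifngr1 by 1.03 (adjusted p = 0.00983). In non-fibrotic bronchi 0 of these 16 and 0 of these 11 were called.

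**Figure D4:**
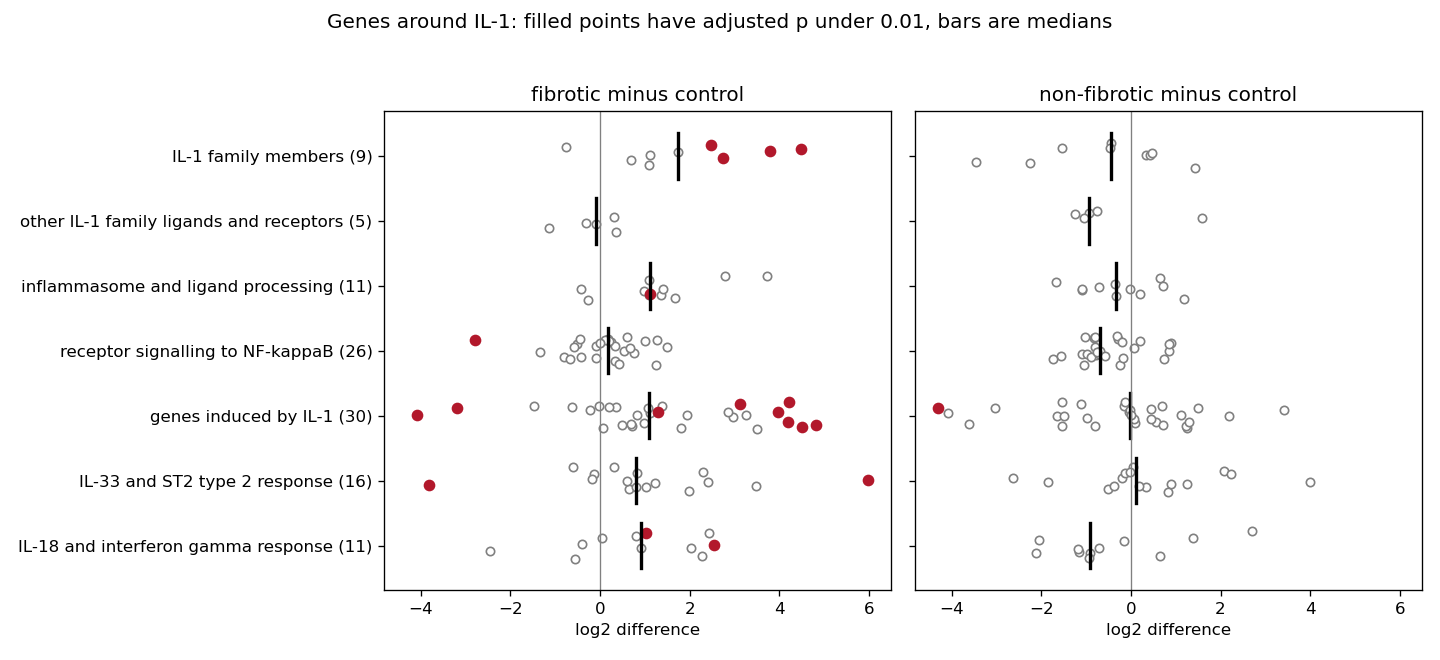
Log2 difference (horizontal axis) of each measured gene of 7 lists in fibrotic minus control bronchi (left) and non-fibrotic minus control bronchi (right), with the number of genes in brackets, the list median as a bar and genes with an adjusted p under 0.01 filled. Rises and falls both occur among the 30 genes induced by IL-1 on the left, and Ccl20 is the 1 filled point on the right.

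Among markers of other cells, many of macrophages and fibroblasts rose in fibrotic bronchi against controls, and those of most other types were not called higher. No endothelial (0 of 9), basal and squamous (0 of 6) or smooth muscle marker (0 of 8) was called higher, and 1 endothelial marker fell. The list medians were 0.45, 2.01 and -0.32. Basal and squamous sums were 3480 to 26800 in fibrotic bronchi, with the highest in specimen 9. They were 1170 to 2440 in non-fibrotic bronchi and 376 to 9450 in controls. Of 7 airway epithelial markers 1 rose and 1 fell, and of 8 alveolar type II markers 3 fell. Endothelial sums were 6080 to 6770 in fibrotic bronchi, 4290 to 7230 in non-fibrotic bronchi and 4370 to 7380 in controls. Of 14 macrophage markers, 8 rose in fibrotic bronchi against controls, among them Gpnmb (4.00), Cd163 (4.46) and C1qc (2.68), and their summed signal was 41400 to 69300 in fibrotic bronchi, 22300 to 37700 in non-fibrotic bronchi and 15400 to 26200 in controls. Itgam was under background on all non-fibrotic and all control arrays. Of 10 fibroblast markers 6 rose, among them Postn (3.90), Lum (4.45) and Pdgfra (1.35), with a list median of 1.54 and sums of 69000 to 99700 in fibrotic bronchi, 37600 to 55000 in non-fibrotic bronchi and 31600 to 53000 in controls. No T cell marker of 10 was called, with a list median of 1.72. T cell sums were 6150 to 8410 in fibrotic bronchi, 1720 to 4140 in non-fibrotic bronchi and 680 to 6340 in controls. Alveolar type II markers summed to 51400 in fibrotic specimen 7, which had the highest Il1a and Il1b of its group, and to 4790 and 6350 in the other 2 fibrotic specimens, with 60600 to 82400 in non-fibrotic bronchi and 32500 to 54700 in controls. Eosinophil markers stayed uncalled, 0 of 6, and Ccr3 and Il5ra were under background on all arrays of each group. The part of any of these cells in the changes of the 9 genes was not tested.

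Genes with a pattern like that of a member were taken as those of highest correlation over the 12 arrays among 14216 other genes. For Il1a these were Has2 (r = 0.969), the thyroid hormone deiodinase Dio3 (0.967) and Tmem170b (0.955). Il33 went with Pea15 (0.971), fibronectin Fn1 (0.971) and apolipoprotein Apoe (0.968), and Il1rl1 with periostin Postn (0.953), the basement membrane protein Nid1 (0.948) and Ggta1 (0.945). Il1rn went with the guanylate-binding gene Gbp7 (0.972), Arhgap9 (0.964) and the proteasome subunit Psma6 (0.919). With the group means taken out, the values for Il1a and Has2 were 0.776, for Il33 and Fn1 0.941, for Il1rl1 and Postn 0.818, and for Il1rn and Gbp7 0.947. Among the members themselves, Il18 and Il33 (r = 0.91), Il1rl1 and Il33 (0.90), and Il1b and Il1r2 (0.90) were closest besides Il1b and Il1rn, and Il1r1 had values below 0 with each of the other 8 (-0.63 to -0.08). Arrays within a group share tissue and makeup, so none of these values carries a p.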

How the data were processed

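Bronchial tissue captured by laser was amplified and hybridized to Affymetrix rat arrays. The authors ran MAS5 on the scans and deposited 1 linear intensity per probe set and array, on the same trimmed mean (2% trimmed at each end) for every array. The error weights of the authors' software are not included. The table has 31099 probe sets, of which 57 are controls and 31042 were tested, with no filter and no pseudocount; 20826 have 1 gene symbol, 436 several and 9780 none.

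Groups and replicate numbers came from the sample labels. A model of the 3 groups was fitted to log2 signals with limma 3.58.1 (lmFit and trended eBayes, R 4.3.3), with Benjamini-Hochberg adjustment over all tested probe sets within a contrast and calls at an adjusted p under 0.01. Adjusted p-values come from that fit, or from a refit with the same steps where a sentence names left-out arrays or another setting. The script was tested on simulated data. A fold is a lower bound where a whole group lay under background (the highest of 84 values of absent bacterial transcripts). Correlations are Pearson's r.

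The 9 members, the pathway and marker lists and the rule for named genes were chosen with earlier results of these data known. Named were all members, called genes of each list (up to 6) and genes that bind or process a member. Up to 3 markers a list and the 3 genes most like each of 4 members were named too. S100a9, Itgax and Il13 were named after their values were seen. Some other markers were named because they lay under background on all arrays of a group. Alternatives changed the threshold, filter, floor, pseudocount, normalization, variance model, arrays and probe sets; a floor at the bacterial level was added after seeing the data. The labels do not say that replicates of a group are separate animals, so p-values measure the spread between these specimens. Array signals have no sequencing depth, and the number of arrays limits the precision. Figures were drawn with matplotlib 3.10.9.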

Additional observations from a re-analysis of the deposited data

Results flagged for a closer look

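The lowest control array for Il1rn, control 5 (6.61), stood apart from the other 5 controls (8.54 to 9.57), with a gap of 0.652 of the range of the group that is over Dixon's critical value for 6 samples. By chance such a gap is passed in about 1 of 20 groups, and the controls of all 9 genes were screened for one. Control 5 also had the lowest Il1b and Il1r2 and the lowest summed neutrophil, macrophage and T cell signals of the controls.

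Fibrotic and non-fibrotic bronchi, both from PD-exposed rats, differed for 3 genes in the limma contrast between them. That contrast compares the tissues themselves and does not use the control mean, but the control arrays enter its estimate of the spread. With only the 2 exposed groups fitted, Il1b and Il1rn stayed called and Il18 did not (adjusted p = 0.0335 by limma). In it 1.47% of all genes were higher in fibrotic bronchi. The call was lost in 15 of 26 other settings for Il1b, 8 for Il1rn and 14 for Il18. The log2 differences of fibrotic from non-fibrotic bronchi were 4.55 for Il1b, 3.28 for Il1rn and 2.95 for Il18. For all 3 the fibrotic mean lay above and the non-fibrotic mean below that of controls. Of these differences from controls, only the rise of Il18 in fibrotic bronchi was called.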

How the results depend on the processing

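Of 750 member values recomputed under other settings, 656 kept their direction and side of the threshold, 55 were no longer called, 27 were newly called and 12 changed sign. Against controls, 4 genes rose in fibrotic bronchi, against 1 without moderation of the variance and 0 with controls 1 and 2 only. Leaving out 1 array gave 2 to 4, with 2 without fibrotic specimen 3 or 9. Il1a lost its call only with controls 1 and 2. In non-fibrotic bronchi 0 genes were called against controls, but 1 (Il1b) at an adjusted p under 0.05; leaving out 1 array gave 0 to 1, with 1 without non-fibrotic specimen 4 or control 5.

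Between fibrotic and non-fibrotic bronchi 3 genes were called. This count was 7 at an adjusted p under 0.05, and 5 with each of the 2-fold rule at an unadjusted p under 0.001, median centring, a pseudocount of 16, a floor at the 20th percentile and a random block for the 2 label forms. It was 0 without an intensity trend, with array quality weights, without moderation and with the floor at the bacterial level, which was chosen after seeing the data. Leaving out 1 array gave 0 to 7, with 0 without fibrotic specimen 3 or 7 or non-fibrotic specimen 8 or 10, and 7 without non-fibrotic specimen 4. The cause of these shifts was not tested.

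Signs turned for small differences. With controls 1 and 2 only, Il1b in fibrotic bronchi against controls was -0.02 and Il33 in non-fibrotic bronchi -0.34. In non-fibrotic bronchi against controls, the second probe set gave -0.06 for Il33 and -1.02 for Il1rl1, and the mean of the probe sets gave -0.29 for Il1rl1. Leaving out 1 array, non-fibrotic bronchi differed from controls by -0.82 to 0.08 for Il1r1, -0.12 to 0.94 for Il1rl1, -0.38 to 1.67 for Il33 and -1.16 to 0.44 for Il18, and fibrotic from non-fibrotic bronchi by -0.84 to 0.24 for Il1r1 and -0.08 to 0.68 for Il1rap. Dropping the lowest 40% of probe sets removed Il1a from the test. No paired analysis of fibrotic and non-fibrotic bronchi was possible because the labels do not tie a specimen to a rat.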

Other observations

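Genes outside the rule for naming, seen in the lists after their values were known, add a few values. Il36rn, an antagonist of the IL-36 branch of the family, lay higher on all 3 non-fibrotic arrays than on all 6 controls (1.58 on the log2 scale, adjusted p = 0.0861 by limma), with a non-fibrotic mean of 6.42 that is under background. Ifng lay above controls in fibrotic (2.28, adjusted p = 0.025) and non-fibrotic bronchi (2.70, adjusted p = 0.0302), with means under background in every group. Casp4, an inflammatory caspase, was lower in non-fibrotic bronchi than in controls by -1.66 (adjusted p = 0.0394).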
